A study of Sus scrofa with 13 samples.

Results

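Narrow 5-hydroxymethylcytosine (5hmC) regions shared by all libraries were stretches of the pig genome shorter than 2000 bases in which each of the 12 5hmC libraries had at least 1 called peak. They were found by merging the peaks of the 12 lists on chromosomes 1 to 18 wherever peaks shared a base, and keeping merged regions under 2000 bases with a peak in every library. The rule kept 25301 of 395289 merged regions, or 6.40%. Because peak calls and length chose these regions, their number, length and fold are descriptions and carry no test.

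The libraries came from mesenchymal stem cells grown out of the abdominal fat of domestic female pigs. All 12 came from pigs on a high-cholesterol diet whose renal artery had been narrowed with an irritant coil, so hypoxia and normoxia shared diet and disease. The 6 hypoxia libraries were made from cells held at 1% oxygen for 48 hours, and the 6 normoxia libraries from cells held at 20% oxygen. The comparison asks how 5hmC in these cells differed after low oxygen. The sample titles carry the numbers 4, 16, 21, 33, 49 and 110, each used once per group, and a library is named here by its group and number. The labels do not say what these numbers stand for, so the spread between libraries may be technical. In bulk DNA, another mix of cells and another level of 5hmC per cell cannot be told apart.

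5hmC is made when the TET dioxygenases, which need oxygen, iron and 2-oxoglutarate, oxidise 5-methylcytosine. It is both a step on the way to removal of DNA methylation and a lasting mark, and in many tissues it is found over the bodies of transcribed genes and at enhancers. Here DNA fragments were captured with an antibody to 5hmC, so a peak marks a stretch where captured fragments piled up. Its fold enrichment is the authors' value for that pile-up over the level their peak caller took as background. Fold values from different lists therefore describe each list and do not measure amounts of 5hmC.

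Libraries had 15569948 to 27428482 reads in the count tables and 100696 to 245733 peaks on chromosomes 1 to 18. The normoxia library of number 21 had the fewest reads and the fewest peaks. Only 263578 (normoxia 21) to 714002 (normoxia 4) of the reads were counted in genes, and the marker values below rest on these. All 10 stromal marker genes checked had 5hmC reads in every library, as did 4 of 6 leukocyte, all 5 endothelial, 7 of 10 adipocyte and 2 of 4 epithelial genes. Summed CPM (reads over a gene, scaled to the same total of gene reads in each library) were 679 to 1013 in hypoxia and 618 to 1299 in normoxia for the stromal list of 10 genes. In the same order they were 295 to 423 and 219 to 429 for the 6 leukocyte genes, 364 to 507 and 267 to 421 for the 5 endothelial, 465 to 662 and 434 to 586 for the 10 adipocyte, and 78.2 to 134 and 61.6 to 111 for the 4 epithelial genes. Reads of 5hmC over a gene are not its expression, so the labelled cell type could not be checked with them. Base composition, genes at the regions and sequences are not reported here, as the genome build is not given in the sources used here.

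Narrow shared regions were the main form that full sharing took. Of 32032 regions with a peak in all 12 libraries, 79.0% were narrow, and the other 6731 were 2000 bases or longer. They covered 31.1 Mb, or 14.1% of the 221 Mb under all merged regions and 1.37% of the span from the start of each chromosome to its last peak. The longer shared regions covered 18.8 Mb. A further 20614 regions under 2000 bases had a peak in 11 of the 12 libraries.

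Their name holds only against the length limit, since most of them were longer than the usual merged region. They ran from 291 to 1999 bases with a median of 1208 and quartiles of 923 and 1526. All merged regions had a median of 402 bases, and 90% of those were no longer than 1119. Regions under 2000 bases that missed 1 library had a median of 916 bases. These differences are partly built in, since a merged region is the union of its peaks and each added library can extend it. At the length limit the distribution had no break, with 521 regions in the last 50 bases inside it and 448 in the first 50 outside.

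**Figure D1:**
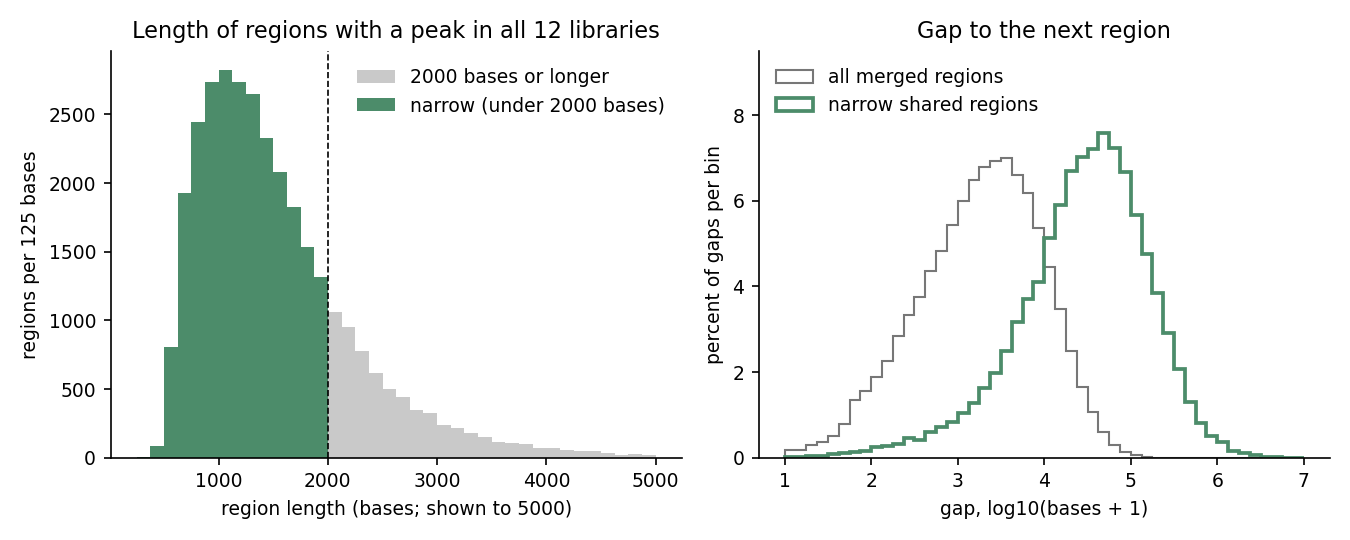
Left, histogram of the length in bases of regions with a peak in all 12 libraries, with the narrow ones in green, the longer ones in grey and the limit of 2000 bases dashed. Right, histogram of the gap from each region to the next on its chromosome, as log10 of bases plus 1, where the narrow shared regions (green, median 33089 bases) lie to the right of all merged regions (grey, median 2034 bases). Gaps under 9 bases are outside the plotted range.

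The regions closest to the limit differed from each other in strength. The first 3 of the longest in chromosome order, each of 1999 bases, lay on chromosome 1 (188483683 to 188485681), chromosome 4 (92295591 to 92297589) and chromosome 6 (152932450 to 152934448). Their median folds over the 12 libraries were 5.06, 13.9 and 9.89. Just outside, 3 shared regions of 2000 bases on chromosome 1 (11735509 to 11737508), chromosome 2 (13100413 to 13102412) and chromosome 2 (48015845 to 48017844) had median folds of 17.1, 7.71 and 8.01. The values on the 2 sides of the limit overlapped.

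At the short end, the smallest region was 291 bases on chromosome 1 (50546773 to 50547063). It held 1 peak in each library, with summits within 29 bases of each other. Its fold ran from 4.91 to 8.35 in hypoxia (median 7.13) and from 5.82 to 7.96 in normoxia (median 6.33), so the groups overlapped. The third smallest, 343 bases on chromosome 16 (39890497 to 39890839), was stronger and more uneven. Its fold was 5.52 to 42.5 in hypoxia (median 19.4) and 6.83 to 22.0 in normoxia (median 17.95), and the lowest value came from the hypoxia library of number 33.

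Along the chromosomes most regions had no other narrow shared region within 10 kb, and the rest formed short runs. The median gap from a narrow shared region to the next was 33089 bases, with quartiles of 10685 and 90403. All merged regions had a median gap of 2034 bases, but a smaller set of regions has wider gaps by its number alone. All regions with a peak in all 12 libraries had a median gap of 23084.5 bases, with 32.1% of gaps under 10 kb. Gaps under 10 kb made up 23.9% of those between narrow shared regions, and gaps over 100 kb made up 22.6%. The median gap was 18700 bases when the normoxia library of number 21 was left out and the other 11 had to have a peak, which is the largest change any single library made.

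Runs in which each region followed the last within 10 kb held few members. Of the 25301 regions, 59.9% had no other within 10 kb on either side, 22.6% were in pairs and 9.52% in runs of 3. The longest runs had 10 regions, 1 on chromosome 9 (32841095 to 32894774) and 1 on chromosome 14 (7502200 to 7554769). The run on chromosome 9 spanned 53680 bases, of which 12059 lay in its regions, and these were 649 to 1842 bases long. The run on chromosome 14 spanned 52570 bases with 13655 in regions. A longer shared region lay within 10 kb of 16.3% of the narrow ones, and the median distance to it was 71346 bases.

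The emptiest stretches were bare of narrow shared regions but not of peaks. The largest gap was 5.38 Mb on chromosome 13 (183155528 to 188532042), and it held 217 merged regions called in some of the libraries. The next was 5.35 Mb on chromosome 11 (53015520 to 58368231) with 193 merged regions. Of 2254 windows of 1 Mb, 130 (5.77%) held no narrow shared region, and each of these still held a merged region. The median window held 10 of them, with quartiles of 4 and 16.

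The densest windows held several times the median. A window on chromosome 4 (12000001 to 13000000) and another on chromosome 17 (51000001 to 52000000) each held 52 narrow shared regions. A window on chromosome 5 (93000001 to 94000000) held 49, and 11 windows held 40 or more. Windows rich in narrow shared regions were also rich in merged regions of any kind, with 412 in the window on chromosome 4 and 405 in that on chromosome 17. Over all windows Spearman's rho between the counts was 0.91, as a description, since every narrow shared region is also counted among the merged ones.

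Density per chromosome followed the density of all peaks. There were 11.2 narrow shared regions per Mb over all 18 chromosomes, and the chromosomes had 11.5 ± 1.76 per Mb (mean ± SD, n = 18 chromosomes). Chromosome 12 was densest with 14.4 per Mb (889 regions), followed by chromosome 5 with 13.7 and chromosome 10 with 13.7. Chromosome 8 was sparsest with 9.01 per Mb (1252 regions), followed by chromosome 13 with 9.27 and chromosome 11 with 9.34. The order of near neighbours at either end rests on small differences. Chromosome 13 was the sparsest with a stricter q-value, a longer length limit, equally long lists or at least 50% coverage, and chromosome 11 without normoxia 49. Chromosome 7 was the densest with a limit of 1000 bases. Counted per merged region in place of Mb, chromosome 5 was the highest and chromosome 13 the lowest.

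The spread between chromosomes was nearly that of all merged regions. The highest density was 1.60 times the lowest for narrow shared regions and 1.59 times for all merged regions. Narrow shared regions made up 5.90% of the merged regions on chromosome 13 and 7.01% on chromosome 5, and the other 16 chromosomes lay between. Spearman's rho of their density with that of all merged regions was 0.96 over the 18 chromosomes, and with chromosome length it was -0.56, both as descriptions of points that share the same 12 libraries. Within chromosomes, the last of 10 equal parts held 12.1% of narrow shared regions, 11.4% of all merged regions and 14.2% of the longer shared regions.

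**Figure D2:**
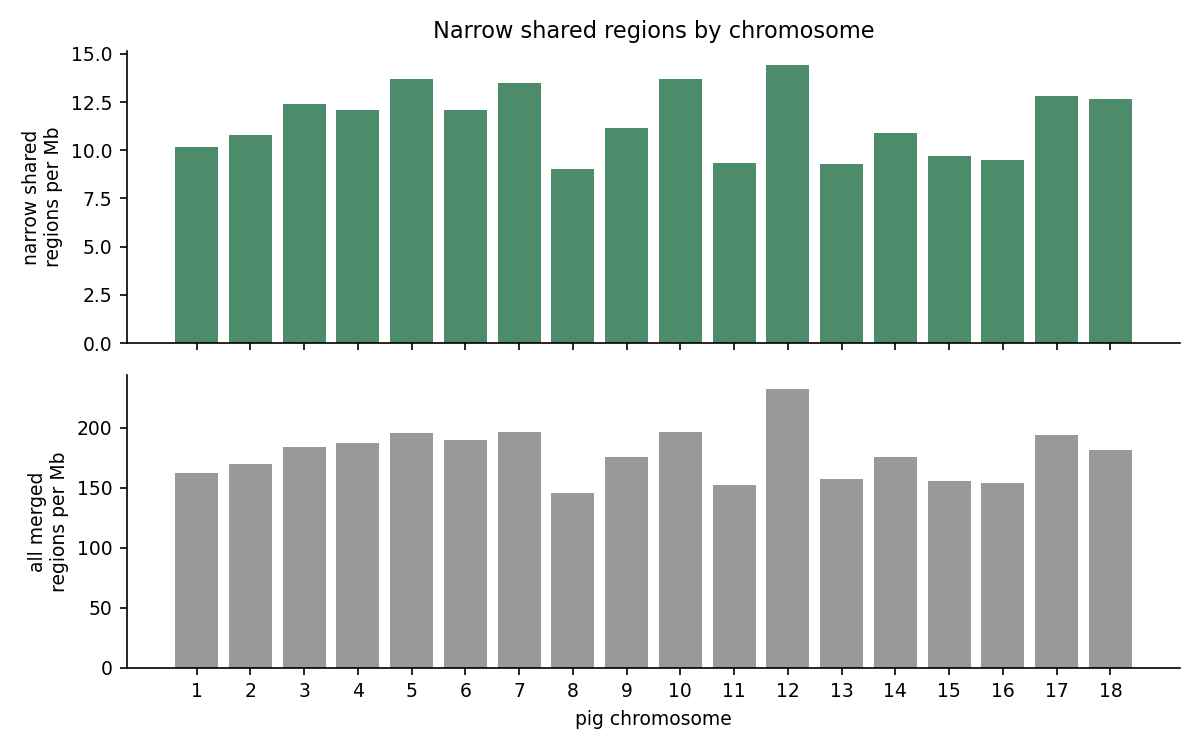
Bars give regions per Mb for each pig chromosome from 1 to 18, narrow shared regions above (green) and all merged regions below (grey), with Mb counted to the largest peak end. Both panels are highest at chromosome 12, with 14.4 and 232 per Mb, and lowest at chromosome 8, with 9.01 and 146 per Mb.

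Inside the regions, most libraries placed a single peak. Across libraries 70.4 to 93.9% of the narrow shared regions held 1 peak, and 8895 of them (35.2%) held 1 peak in every library. The rest were split into several peaks by at least 1 library. Peaks inside the regions were 321 to 755 bases wide in the median, and the peaks of a library covered 43.6 to 77.1% of a region in the median. Both extremes were normoxia libraries, number 33 with the narrowest peaks and number 21 with the widest. The other 10 libraries covered 53.0 to 64.5%.

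The point of highest signal stood near the middle of the regions, with hardly any shift between groups in the median region. The median summit over the libraries lay 49.6% of the way along a region (quartiles 38.6 and 60.7%). This is partly built in, since a region is the union of the peaks that hold these summits. The range of the 12 summits was 382 bases in the median region, with quartiles of 237 and 636. The median summit of the hypoxia libraries minus that of the normoxia libraries was -0.5 bases in the median region, and it lay between -164 and 168.5 bases in 90% of them. A library's summit was 38.5 to 57.5 bases from the region's median summit in 10 libraries, 78.5 in normoxia 33 and 107.5 in normoxia 21.

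In 424 regions (1.68%) all 12 summits lay within 100 bases. These had a median length of 957.5 bases and a median fold of 13.0, against 1208 bases and 8.80 for all narrow shared regions. The 3 with the closest summits, chosen after their values were seen, were on chromosome 4 (130724307 to 130724772), chromosome 15 (126761823 to 126762583) and chromosome 13 (207365253 to 207365814), with summits within 5, 10 and 19 bases. Close summits did not go with 1 level of signal. The region on chromosome 4 had folds of 2.27 to 5.96 in hypoxia (median 4.73) and 2.29 to 6.29 in normoxia (median 4.35), while that on chromosome 13 had 13.9 to 24.9 (median 18.4) and 11.7 to 23.3 (median 15.4). Hypoxia and normoxia overlapped in each.

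Narrow shared regions were stronger than the usual peak of every list. For each region and library the highest fold of its peaks was taken. In the number order 4, 16, 21, 33, 49 and 110, the median fold over the regions was 9.76, 8.18, 10.3, 9.07, 9.55 and 8.50 in the hypoxia libraries. In the same order it was 8.54, 9.62, 6.81, 7.11, 9.30 and 9.66 in the normoxia libraries. Normoxia 21 and normoxia 33 stood below all others, and the other 10 libraries lay between 8.18 and 10.3. The median was 1.21 to 1.71 times the median of all peaks in the same list, and 69.9 to 85.3% of a list's peaks lay at or below it. This is partly built in, since a region with a peak in every library and the highest of several peaks favour strong values.

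Longer shared regions were stronger still, and regions missing a library weaker. The median fold of the longer shared regions was 11.5 ± 1.05 in hypoxia and 11.2 ± 1.59 in normoxia (mean ± SD of library medians, n = 6 each). That of regions under 2000 bases with a peak in 11 libraries was 7.30 ± 0.486 and 7.22 ± 0.884. Among narrow shared regions the median fold was 8.27 for lengths of 500 to 999 bases, 8.85 for 1000 to 1499 and 9.45 for 1500 to 1999. Spearman's rho between length and median fold was 0.18 over the 25301 regions, a weak relation. These differences are partly built in as well. A longer region can hold more peaks to take the highest from, and a weak region is more easily missed by a library.

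Hypoxia and normoxia were not separated by the strength of these regions. The library medians averaged 9.22 ± 0.786 for hypoxia and 8.51 ± 1.27 for normoxia (SD over 6 libraries each). The difference of 0.710 was smaller than the SD of either group, and the groups overlapped, with hypoxia higher in 4 of 6 title numbers. Without normoxia 21 the difference was 0.129, and without both normoxia 21 and normoxia 33 it was -0.13, with the regions chosen again from the libraries left. These libraries also had the fewest peaks of the 12, 100696 and 143515, and few reads, 15569948 and 16348840. Hypoxia 16 had 15893774 reads and 146147 peaks with a median fold of 8.18. The part of depth in the result was not tested.

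**Figure D3:**
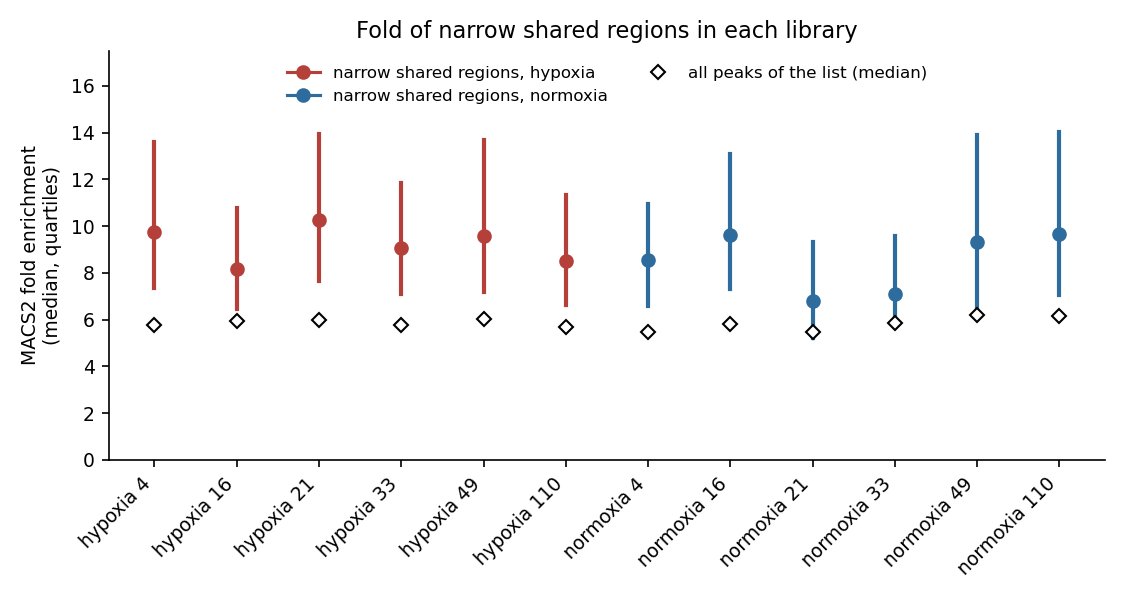
MACS2 fold enrichment in each of the 12 libraries, with the median (point) and quartiles (line) over the narrow shared regions for hypoxia (red) and normoxia (blue), and the median of all peaks of the list (open diamond). The point lies above the diamond in every library, and normoxia 21 and normoxia 33 have the lowest points, 6.81 and 7.11.

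The groups also overlapped on the scale of ranks within each list. The percentile of a region is the share of its list's peaks with the same or a lower fold. The median fold of the narrow shared regions stood at percentile 83.0 ± 2.19 for hypoxia and 78.1 ± 6.36 for normoxia (SD over 6 libraries each). The difference of 4.88 was larger than the SD of hypoxia and smaller than that of normoxia. Over single regions, the mean percentile in hypoxia minus that in normoxia had a median of 5.50, and 73.8% of regions were higher in hypoxia. Without the title numbers 21 and 33 the median was 1.19 and the share 56.0%. Lists of different lengths do not share a scale of ranks, so these differences describe the lists.

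Few regions kept the groups apart. In 32 of the 25301 narrow shared regions (0.126%) the fold was higher in every hypoxia library than in any normoxia library, and the same held for 0.116% of all 32032 regions with a peak in all 12. The reverse was seen in 1 narrow region (0.00395%), against 0.00624% of all. Within-list percentiles kept 49 narrow regions apart with hypoxia higher (0.194%, against 0.209% of all) and 4 with normoxia higher (0.0158%, against 0.0125%). The narrow regions are 79.0% of all shared ones, so these shares are bound to lie close. Among the 6731 longer shared regions, fold kept 5 apart with hypoxia higher (0.0743%) and 1 with normoxia higher (0.0149%), and percentiles 18 (0.267%) and 0. Without normoxia 21 and normoxia 33, 121 narrow regions (0.478%, against 0.534% of all shared) were apart in fold with hypoxia higher, and 93 (0.368%, against 0.425%) with normoxia higher. The longer regions held 50 and 43 of these. With 6 libraries against 4, fewer values have to stand apart.

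Each chromosome showed the same small offset. The mean of the library medians was higher in hypoxia on all 18 chromosomes, by 0.553 (chromosome 5) to 0.854 (chromosome 6), and the groups overlapped on each of them. The chromosomes share their libraries, so these are not 18 separate comparisons. The median fold over the 12 libraries ran from 8.60 on chromosome 13 to 9.83 on chromosome 12.

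The regions with the widest gap between group means in percentile show how much single libraries varied. The widest toward hypoxia was 612 bases on chromosome 6 (81215107 to 81215718), with folds of 8.25 to 12.5 in hypoxia (median 9.96) and 3.57 to 9.71 in normoxia (median 4.50). Its mean percentile was 86.3 in hypoxia and 32.7 in normoxia. The folds overlapped through normoxia 49, which had 9.71. Next came 830 bases on chromosome 7 (83681709 to 83682538), with folds of 4.87 to 14.8 (median 11.9) and 3.19 to 9.67 (median 4.38). The third, 1812 bases on chromosome 6 (69524882 to 69526693), had 7.03 to 25.2 (median 17.9) and 3.76 to 13.9 (median 4.77). Both of these overlapped as well.

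Toward normoxia the widest was 1065 bases on chromosome 6 (53021530 to 53022594), with folds of 3.25 to 6.83 in hypoxia (median 4.70) and 6.09 to 11.5 in normoxia (median 8.14). Its mean percentile was 30.0 in hypoxia and 72.8 in normoxia, and hypoxia 21 with 6.83 and hypoxia 49 with 6.39 lay inside the normoxia range. A region of 1546 bases on chromosome 6 (118899219 to 118900764) had 4.11 to 8.54 (median 5.18) and 5.77 to 19.3 (median 11.1). The third, 1683 bases on chromosome 5 (81874289 to 81875971), had 3.35 to 6.88 (median 4.76) and 4.39 to 12.6 (median 7.98). All were picked for their difference, which therefore is not a test.

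Correlations between libraries were higher, in the median, for the same title number than for the same oxygen level, though the ranges overlapped. Over the 25301 regions, Pearson's r of log2 fold had a median of 0.62 for the 6 pairs with the same number (0.37 to 0.76). It had a median of 0.50 for the 30 pairs within a group (-0.10 to 0.72) and 0.40 for the 30 pairs that shared neither (0.15 to 0.68). Pairs of the same number shared a sequencing lane, as the files name it. Pairs of other group and number had a median of 0.39 within a lane (14 pairs) and 0.40 between lanes (16 pairs). All pairs share the rule that chose the regions, and each library enters 11 of them. For 6 of the 12 libraries the closest other library was the one of its own number, as for hypoxia 16 and normoxia 16 with r = 0.76. The exceptions included hypoxia 33, closest to normoxia 4 (0.62), and normoxia 49, closest to normoxia 110 (0.72).

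The normoxia library of number 21 stood apart in the strength of these regions. Its r with the other 11 libraries ran from -0.10 to 0.37, and the highest was with hypoxia 21. Without it, the median r was 0.68 for pairs of the same number, 0.52 within a group and 0.41 for the others. It had the lowest fold of the 12 in 7534 regions (29.8%), and normoxia 33 in 4303 (17.0%). It was also the library that most often kept a region out: of the 20614 regions under 2000 bases that lacked 1 library, 44.9% lacked normoxia 21, 22.3% normoxia 33 and 12.8% normoxia 49.

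**Figure D4:**
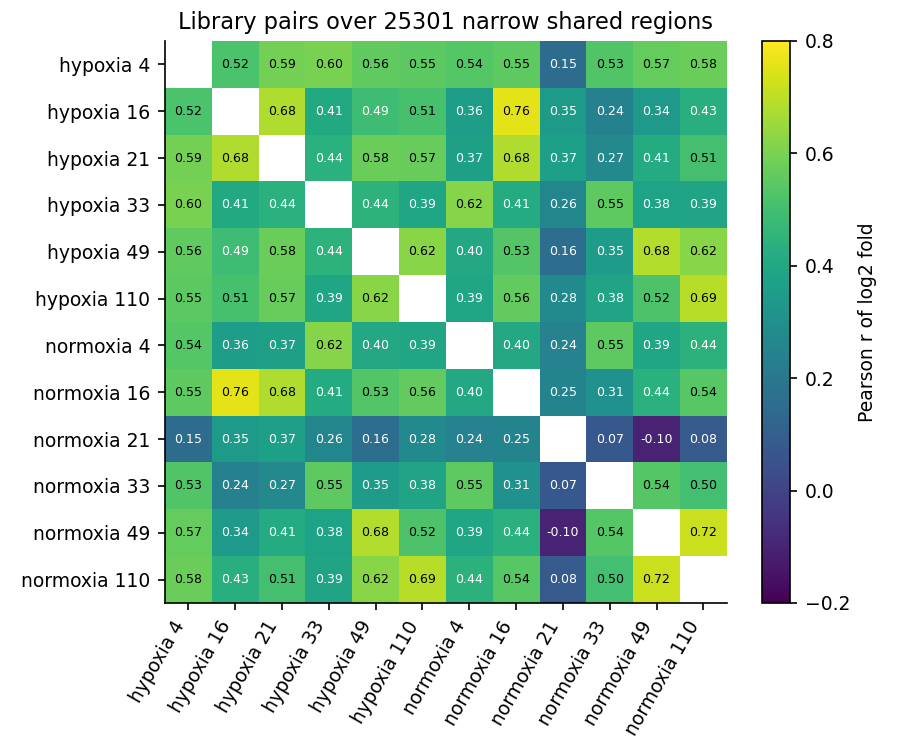
Pearson's r of log2 fold for each pair of the 12 libraries over the narrow shared regions, printed in each cell and coloured from low (dark) to high (light). The row of normoxia 21 holds the lowest values, -0.10 to 0.37, and the highest cell is that of hypoxia 16 with normoxia 16, 0.76.

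A single region varied widely between libraries. The highest fold of the 12 was 2.87 times the lowest in the median region, and 1.87 to 5.41 times in 90% of regions. Strong signal in every library was rare. A median fold of 20 or more was found in 582 regions (2.30%), and 15 had at least 20 in all 12 libraries. A place above the median of the list in all 12 libraries was held by 7523 regions (29.7%), in the top 10% by 418 and in the top 1% by 12.

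The 5 regions ranked highest within the lists held folds far above the median of 8.80. The first was 657 bases on chromosome 2 (149069148 to 149069804). Its fold was 22.5 to 203 in hypoxia (median 114) and 13.2 to 187 in normoxia (median 79.3). Both libraries of number 21 were the lowest of their group, and the groups overlapped over nearly their whole range.

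The second and the fifth lay on chromosome 5, and in each some title numbers had similar folds in both of their libraries. The second, 1964 bases (103051721 to 103053684), had 49.5 to 141 in hypoxia (median 75.1) and 38.9 to 127 in normoxia (median 58.0). Number 16 had the highest value in both groups there, while number 49 had 122 in hypoxia and 61.1 in normoxia. The fifth, 1760 bases (103559335 to 103561094), was strong in 8 libraries and weak in the 4 of numbers 16 and 49. Its fold was 8.12 and 8.79 in hypoxia 16 and normoxia 16, 5.89 and 5.29 in hypoxia 49 and normoxia 49, and 44.7 to 137 in the others. Oxygen level did not follow this pattern, as each number had both of its libraries on the same side. Within the strong side number 4 still differed, with 137 in hypoxia and 44.7 in normoxia.

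The third and the fourth varied as well. The third, 1646 bases on chromosome 12 (46671450 to 46673095), had folds of 65.0 to 88.6 in hypoxia (median 73.3) and 32.1 to 87.4 in normoxia (median 53.1). The fourth, 1927 bases on chromosome 8 (699814 to 701740), had 43.1 to 98.6 (median 71.4) and 25.6 to 109 (median 64.2). The lowest value came from normoxia 21 on chromosome 12 and from normoxia 33 on chromosome 8, where number 33 was the lowest in hypoxia too. The groups overlapped in both regions.

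**Figure D5:**
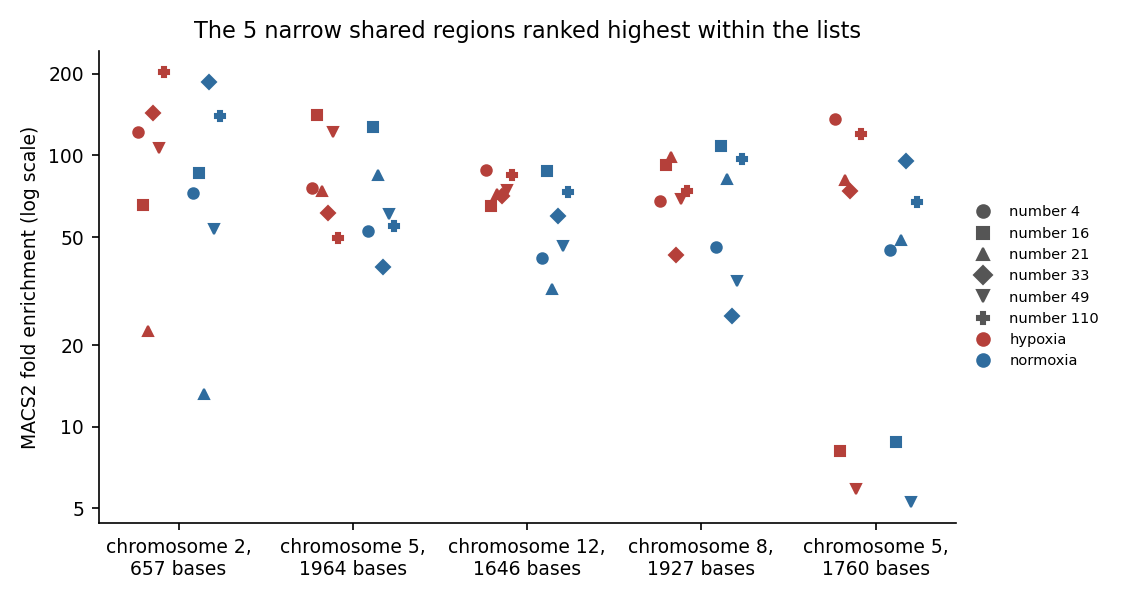
MACS2 fold enrichment on a log scale in the 12 libraries for the 5 narrow shared regions with the highest median percentile, in order from left to right; colour gives hypoxia (red) or normoxia (blue) and the symbol the title number. In the last region the 4 libraries of numbers 16 (squares) and 49 (downward triangles) lie between 5.29 and 8.79 and the other 8 between 44.7 and 137.

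At the other end stood regions that every library called but hardly any ranked highly. The lowest median percentile belonged to 735 bases on chromosome 10 (19290753 to 19291487), with folds of 2.99 to 5.12 in hypoxia (median 3.75) and 2.22 to 4.90 in normoxia (median 2.86). Next was the second shortest of all, 303 bases on chromosome 7 (92960303 to 92960605), with 2.23 to 4.68 (median 3.70) and 1.89 to 5.58 (median 3.63) and 12 summits within 19 bases. The others of the lowest 5 lay on chromosome 1 (55870695 to 55871728), chromosome 4 (100904187 to 100905176) and chromosome 3 (8752016 to 8753185), with median folds of 3.85, 4.14 and 4.22. The groups overlapped in all 5. Only 4 of the 25301 regions lay below the list median in all 12 libraries.

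Further regions in which the title number went with the fold were sought after the pattern on chromosome 5 had been seen. Each library's log2 fold was centred on its median over the regions. Of the 25301 narrow shared regions, 257 then differed at least 4-fold between the means of some pair of title numbers. In 138 of these the hypoxia and normoxia libraries of every number lay within 2-fold of each other. The fifth highest region, on chromosome 5, was not among the 138, since its libraries of number 4 lay further apart. No such count is given for the longer shared regions, so the pattern is not shown to be particular to narrow ones. In the median region the range between numbers was 0.89 on the log2 scale, and the largest difference between both libraries of a number was 0.90. The 138 were chosen for this pattern, so it is a description of them.

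On chromosome 4 (1868457 to 1869848, 1392 bases) number 16 stood low in both groups, with folds of 6.50 in hypoxia and 9.44 in normoxia, while the other 10 libraries had 21.1 to 60.7. The same number was low on chromosome 15 (6410637 to 6411364, 728 bases), with 5.06 and 6.77, next to 7.98 in normoxia 21 and 18.2 to 51.5 in the others. It was high on chromosome 13 (61212424 to 61213883, 1460 bases), with 28.0 and 33.5, where number 4 had 6.30 and 3.76. On chromosome 7 (118410831 to 118412339, 1509 bases) numbers 16 and 21 were high, with 36.6 and 32.3 for number 16 and 23.6 and 24.5 for number 21. The other 8 libraries had 5.20 to 13.3 there. In none of these regions did hypoxia and normoxia stand apart. This follows from their choice, since numbers had to differ more than the libraries of the same number.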

How the data were processed

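Mesenchymal stem cell DNA from the 6 hypoxia and 6 normoxia libraries was captured with an anti-5hmC antibody and sequenced from both ends, per the labels' protocols. Per the submitters' processing notes, the tools were Bowtie2, Picard, MACS2, HTSeq and edgeR. Their versions and settings, the control for peak calling and the genome build were not given in the sources used here. Per library, the authors deposited 1 peak list with a fold enrichment (a ratio), −log10 p-value and q-value, a score and a summit offset per peak, as the values and column order show. The authors also deposited raw counts per gene symbol, used here for depth and marker genes only. The labelled input sample was not analysed here.

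Peaks were merged with Python 3.11.15, numpy 2.4.6 and pandas 2.3.3, where at least 1 base was shared, and starts are given 1-based. A region took the highest fold of its peaks in a library. Merging was tested on simulated lists with known regions. In these 1 peak spanned each region, so chains of partly overlapping peaks were not tested. No peaks overlapped within a list. No test was run: the rule used the peak calls, and a fold belongs to its own list. Members, lists and settings were chosen with earlier results of these data known. Regions were named by rank of percentile, length and group difference, and others are named as chosen after their values were seen. The planned results on base composition, gene position and counts of genes at the regions need a genome or annotation of the files' build and were not run.

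By the planned rule the title numbers paired the libraries. After group means were removed, log2 folds over the regions correlated at 0.115 to 0.469 between libraries of the same number, and at -0.315 to 0.406 between others. Removing group means pulls the values between others down, so this gap is partly built in. Depth limits the peak lists: a region with no peak in a library is not shown to lack 5hmC there.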

Additional observations from a re-analysis of the deposited data

Results flagged for a closer look

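Chromosomes outside the rule also held narrow shared regions. On chromosome X 635 regions under 2000 bases had a peak in all 12 libraries, 5.04 per Mb, with a median fold of 8.45 ± 0.696 in hypoxia and 7.43 ± 0.944 in normoxia (mean ± SD of library medians, n = 6 each). On chromosome Y 46 such regions were found among 607 merged regions, although the labels name female pigs. They all lay in the first 7.96 Mb of a chromosome whose last peak ended at 43.2 Mb. Each library had 176 to 365 peaks on chromosome Y, and the median fold of the 46 regions was 11.5 ± 1.25 in hypoxia and 10.4 ± 2.36 in normoxia (n = 6 each). No control library was used here for comparison.

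Of 88 groups of 6 values checked for a library far from the rest, 9 had one. Chance alone flags about 1 group in 20 when values are independent and normally distributed, which folds and counts need not be. All 9 flagged values were the highest of their group. Many groups here were regions named for their values, and the groups share libraries, so the 9 cannot be set against that rate. Hypoxia 16 was the only library missing in 1339 regions, far above the other hypoxia libraries (146 to 390). Normoxia 4 had 27428482 reads, the most of its group. On chromosome 1 (188483683 to 188485681) number 110 stood above the others in both groups, with folds of 9.61 in hypoxia and 12.4 in normoxia. On chromosome 6 (152932450 to 152934448) number 21 did so, with 25.8 and 18.7. Hypoxia 4 stood high on chromosome 1 (55870695 to 55871728) with 8.82, normoxia 110 on chromosome 7 (83681709 to 83682538) with 9.67, and normoxia 16 on chromosome 13 (61212424 to 61213883) with 33.5.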

How the results depend on the processing

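The number of narrow shared regions, 25301 as reported, depended most on what counted as shared. It was 2319 when each library's peaks had to cover at least 50% of the region, 8011 with a limit of 1000 bases, 11377 with the 100696 top peaks of each list, 45915 with a peak in at least 11 libraries and 46185 without normoxia 21 and normoxia 33. Leaving out each library in turn gave 25555 to 37832, the highest without normoxia 21.

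Median length, 1208 bases as reported, was 1127, 811, 1266, 1072 and 914 bases under those settings in the same order, and 1324 with a limit of 3000 bases, 1239 with peaks up to 100 bases apart merged and 1255 with a −log10 q of at least 5. Leaving out each library gave 979 to 1202. Median spacing was 388076, 124091, 60857, 17640 and 16040 bases under the same 5 settings, 25634 with the limit of 3000 bases and 46654 with the stricter q, and 18700 to 32562 without each library. The densest chromosome had 2.45 times the sparsest with 50% coverage, and 1.53 to 1.86 times without each library.

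The hypoxia minus normoxia difference in fold kept its sign in 23 of 24 alternatives and moved by less than the pooled SD of 1.05 in all 24. That SD is larger than the difference itself, so a change of sign also stayed within it. The alternatives share libraries and are not separate checks. In a paired analysis, with the title number as a replicate block, the difference was 0.710 ± 1.88 (SD, n = 6 numbers). Pairing leaves the mean unchanged by design. It did not make this difference more precise, as the library medians did not rise and fall together within numbers. The difference was 0.698 within lane 7 and 0.734 within lane 8, and -0.13 without normoxia 21 and normoxia 33, an alternative chosen after seeing the data. Leaving out each library gave 0.129 to 0.965. No result here had a test, so none could gain or lose significance. Alternatives planned for gene counts, base composition and gene position were not run. Beyond fewer or more regions kept, the cause was not tested.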
